A study of Mus musculus with 6 samples.

Results

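The 37 genes described here encode proteins that shape, fold and trim mitochondria: the fusion and fission machinery, the MICOS complex of the cristae, outer membrane partners of MICOS, mitophagy factors, chaperones and proteases. They were picked by gene name and not by a cutoff on measured values, although earlier results of these data were known. All 37 were found among the 43074 gene names in each table and among the 12301 genes tested. RNA was measured in soleus, a postural muscle of the mouse hindlimb, in 3 libraries of genotype WT and 3 of genotype StarD7 mKO, in which the gene for the lipid transfer protein StarD7 was targeted. The series text calls the WT group control and gives 3 mice per group, but no label says which animal a library came from, and p-values therefore measure only the spread between these samples. Strain, age, sex, the driver of the deletion, the deleted exons and the meaning of mKO are not stated in the sources used here, and no treatment was named.

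Mitochondria form a network that is joined by fusion and cut by fission, and their inner membrane is folded into cristae that hold the respiratory chain. MICOS and the prohibitins hold the cristae in shape, matrix chaperones fold imported proteins, and proteases clear damaged proteins or cut others at set sites. StarD7 carries phosphatidylcholine, and Parl, a rhomboid protease of the inner membrane and 1 of the 37, cuts StarD7 and so sets whether it goes to the inside of mitochondria or to the cytosol. The design thus asks whether RNA of this machinery differs when Stard7 RNA is lowered.

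Values are TPM, reads per exon length scaled to a fixed sum in each library. The libraries held 42928774 to 51287999 reads as recovered from these values, and from 68 reads for Chchd6 to 48730 for Pink1 in a library. Stard7 stood at 87.5, 95.4 and 94.99 TPM in WT and at 21.8, 21.3 and 34.6 TPM in mKO, so the groups did not overlap and the labels were met. It fell by 1.83 on the log2(TPM + 1) scale (SE 0.16, adjusted p = 0.00585, limma), although the adjusted p was 0.0858 with no filter on low values and 0.0703 without WT replicate 2. Genes encoded in mitochondrial DNA took 43.5, 42.1 and 45.1% of all TPM in WT and 48.9, 46.8 and 48.2% in mKO. This is 4.44 percentage points more in mKO (exact two-sided permutation p = 0.1, the smallest that 3 against 3 allows). It lowers the summed TPM of all other genes by construction, but does not set the TPM of any single gene. All 10 markers of fast muscle fibres were lower in mKO without overlap, 4 of them past the threshold, with a summed level of 41300 to 47400 TPM in WT and 24300 to 31900 in mKO. The 8 markers of slow fibres summed to 16900 to 21900 TPM in WT and 18200 to 25900 TPM in mKO, and none was called. Of 41 markers in 10 lists of other cell types, 38 were tested and none was called, and the summed levels overlapped for 9 lists. The endothelial list was the exception, at 193 to 197 TPM in WT and 188 to 189 in mKO, and the neutrophil list stayed at or under 1.73 TPM with Ly6g at 0 in every library. The part of fibre type and of these cells in the values below was not tested, and in a bulk muscle fewer cells of a type and less RNA per cell cannot be told apart.

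None of the 37 genes passed the threshold. limma called 0 of 37 at an adjusted p under 0.05, against 0.52% of all genes tested, and limma-voom on recovered reads also called 0. At an unadjusted p under 0.05 there were 6 of 37, or 16.2%, against 10.7% of all genes tested, namely Mief2, Chchd3, Apoo, Spg7, Dnaja3 and Immt, all lower in mKO. The smallest adjusted p was 0.111, for Mief2. Over the 37 genes, the 95% intervals of the fold change, each taken alone, reached down to 75.7% and up to 126% of the WT value on the TPM + 1 scale as deposited, and down to 77.3% (Chchd6) and up to 138% (Fundc1) with the mitochondrially encoded genes left out. On the deposited scale the lower end belonged to Mief2 and the upper to Fundc1, the same genes that had the most negative difference, -17.4% of mean TPM, and the most positive, 11.1%.

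Small differences ran mostly one way. The fitted value was below 0 for 30 genes and above 0 for 7, while 55.1% of all genes tested were below 0, and the median was -0.066 on the log2 scale against -0.014 for all genes tested. In 14 of the 37, or 37.8%, the 3 mKO libraries lay below all 3 WT libraries, against 10.3% of all genes tested. These were Mief2, Mff, Chchd3, Apoo, Immt, Samm50, Hspe1, Dnaja3, Trap1, Phb2, Spg7, Parl, Immp2l and Pmpca. The reverse held for 1 gene, Mtx2, against 5.67% of all genes tested, and 22 genes overlapped. The median absolute difference, 0.072, was close to the 0.0779 of all genes tested, while the share of values below 0 was larger. Replicates were tight: the median coefficient of variation within a group was 3.51%, and outside Chchd6 no group exceeded 9.75%.

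**Figure D1:**
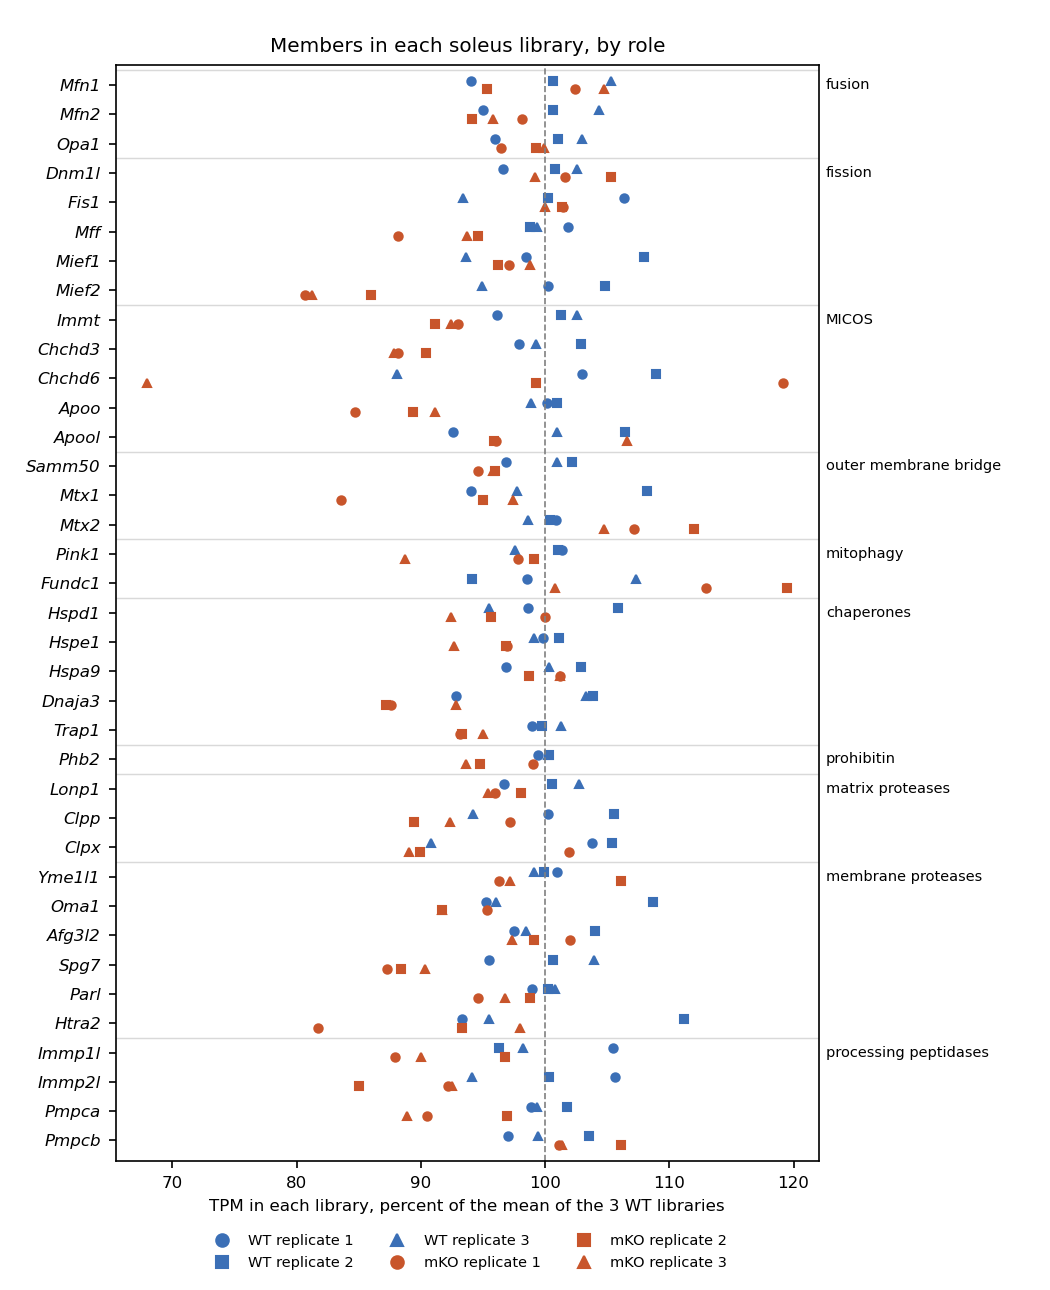
TPM of each of the 37 genes in each library as a percent of the mean of the 3 WT libraries (horizontal axis), grouped by role, with blue points for WT, orange points for mKO and a shape for each replicate number. The mKO points of Mief2, Apoo, Chchd3 and Spg7 lie left of every WT point, those of Mtx2 lie right of them, and Chchd6 is the most scattered.

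How far these differences came from the fixed sum was checked by rescaling. With the mitochondrially encoded genes left out, the median of all genes tested moved by 0.107, to 0.093, and that of the 37 genes moved to 0.051. Relative to all genes, the 37 thus stood at -0.042 on this scale and at -0.052 on the deposited one. The medians of all genes are over different sets, as 13502 genes were tested on this scale and 12301 on the deposited one. The counts moved much more: 11 genes were below 0, 2 were lower without overlap, Chchd3 and Mief2 (5.41%, against 2.71% of all genes tested), and 8 were higher without overlap (21.6%, against 23.9%). Those 8 were Afg3l2, Dnm1l, Fis1, Hspa9, Mtx2, Parl, Pmpcb and Yme1l1, so Parl was lower than WT on the deposited scale and higher on this one. Its log2 fold change was below the median of all genes tested on both: -0.046 against -0.014 on the deposited scale, and 0.068 against 0.093 on this one. Scaling by the median of ratios left 7 genes lower without overlap (18.9%, against 8.85% of all genes tested) and 2 higher (5.41%, against 8.43%). The upper quartile left 9 lower (24.3%, against 8.61%) and 2 higher (5.41%, against 8.71%). Summed over the 37 genes, the share of all TPM was 0.352, 0.364 and 0.355% in WT and 0.343, 0.342 and 0.334% in mKO, without overlap. The share of TPM from nuclear genes was 0.623, 0.628 and 0.646% in WT and 0.671, 0.644 and 0.645% in mKO, with overlap. Only Chchd3 and Mief2 were lower without overlap, and only Mtx2 higher, in the deposited scale and in all 14 alternatives. Of these, only the rescalings and limma-voom could undo a separation. Leaving out a library, other filters or pseudocounts and the replicate block cannot make separate groups overlap.

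**Figure D2:**
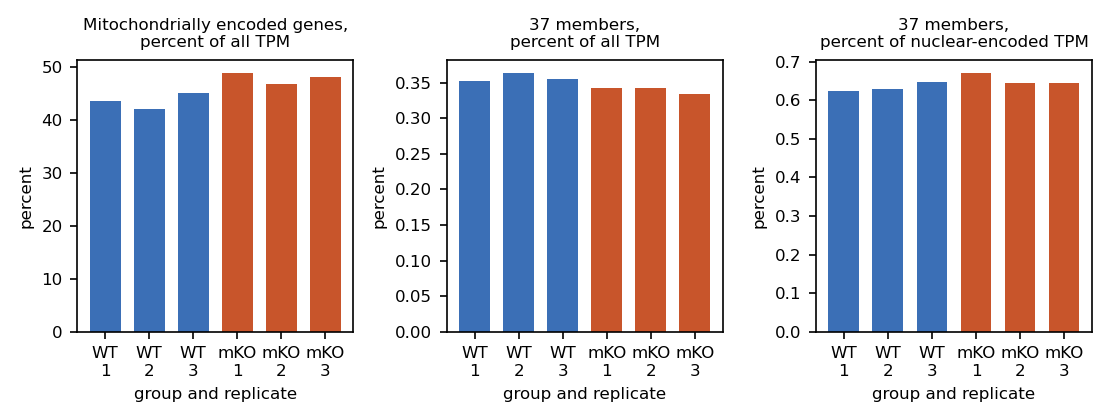
Share of TPM in each library from the mitochondrially encoded genes and from the 37 genes, the latter of all TPM and of nuclear TPM (vertical axes, percent), by group. The mitochondrially encoded share is 46.8% or more in each mKO library and 45.1% or less in each WT library, and the 37 genes separate the groups as a share of all TPM but not of nuclear TPM.

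Fission genes held the largest difference. Mief2 encodes MiD49, an outer membrane receptor that recruits the fission GTPase Drp1, and stood at 96.5, 101 and 91.4 TPM in WT and 77.7, 82.8 and 78.2 TPM in mKO. All 3 mKO libraries were below all WT libraries, with a gap of 8.64 TPM between the nearest libraries. The log2 fold change was -0.27 (SE 0.06, limma adjusted p = 0.111), and over all alternatives it ran from -0.31 to -0.16 with adjusted p from 0.0724 to 0.445. On the scale of nuclear genes the values were 171, 174 and 166 in WT and 152, 156 and 151 in mKO, a difference of -10.3%. Its paralogue Mief1, which encodes MiD51, was low, at 6.66 ± 0.49 and 6.49 ± 0.09 TPM in WT and mKO (SD, n = 3), and overlapped.

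Mff, the receptor that anchors Drp1 on mitochondria and peroxisomes, stood at 21.1, 20.4 and 20.6 TPM in WT and 18.2, 19.6 and 19.4 TPM in mKO. The groups were apart, but the log2 fold change of -0.11 (SE 0.06) had a limma adjusted p of 0.552. Dnm1l, the gene of Drp1 itself, was at 50.3 ± 1.52 and 51.4 ± 1.56 TPM in WT and mKO, and Fis1, an outer membrane adaptor, was at 71.3 ± 4.64 and 72.0 ± 0.56 TPM (SD, n = 3). Both overlapped. Which of the 5 fission genes were apart depended on the scale, except for Mief2: with the mitochondrially encoded genes left out, Mff overlapped (-0.0341%), while Dnm1l (10.7% more) and Fis1 (9.62% more) were higher in mKO without overlap. On that scale 23.9% of all genes tested were higher without overlap, and the median over all genes tested was 0.093.

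The promoter stretch of Mief2, the gene with the lowest value against WT, is shown with those of Chchd3 and Mtx2, the other genes that stayed apart under every scaling. Sequences are from RefSeq on GRCm38.p6, an older build than the GRCm39 of the deposited tables, and end at the annotated start of transcription or, for Mtx2, short of the exon. Mief2 is on chr11:60728148-60728397 (plus strand), Chchd3 on chr6:33060261-33060510 (minus strand) and Mtx2 on chr2:74825562-74825802 (plus strand), each 5′ to 3′ on the gene's strand and free of annotated exons. Capitals mark a CCAAT box (CCAAT, or ATTGG where it lies on the other strand) and an ETS motif (CCGGAAG).
Mief2: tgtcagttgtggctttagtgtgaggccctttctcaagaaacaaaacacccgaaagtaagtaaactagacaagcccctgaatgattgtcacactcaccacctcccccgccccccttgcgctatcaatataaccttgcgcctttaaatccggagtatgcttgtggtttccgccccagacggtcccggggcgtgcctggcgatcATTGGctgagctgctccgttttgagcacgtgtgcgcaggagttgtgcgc
Chchd3: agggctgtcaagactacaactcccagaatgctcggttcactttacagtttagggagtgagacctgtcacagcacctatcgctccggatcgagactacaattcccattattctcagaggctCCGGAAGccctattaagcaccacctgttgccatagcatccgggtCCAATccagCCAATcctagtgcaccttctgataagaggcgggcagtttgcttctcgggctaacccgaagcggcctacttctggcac
Mtx2: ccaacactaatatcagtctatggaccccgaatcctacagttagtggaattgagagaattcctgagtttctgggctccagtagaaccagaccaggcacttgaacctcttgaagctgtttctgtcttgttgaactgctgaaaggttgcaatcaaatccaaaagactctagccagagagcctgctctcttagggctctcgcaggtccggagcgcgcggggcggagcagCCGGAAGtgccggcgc
The ETS motif and CCAAT boxes occur together in Chchd3, the ETS motif alone in Mtx2 and a CCAAT box alone in Mief2, so no motif searched was in all 3.

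Fusion genes overlapped on both scales. Mfn1 and Mfn2 encode the outer membrane GTPases that tether and fuse mitochondria. Mfn2 was at 342, 363 and 376 TPM in WT and 354, 339 and 345 TPM in mKO. Mfn1 was at 117, 125 and 131 TPM in WT and 127, 119 and 130 TPM in mKO. Opa1, the inner membrane GTPase that also narrows the cristae, was at 45.4, 47.8 and 48.7 TPM in WT and 45.6, 46.9 and 47.3 TPM in mKO. The log2 fold changes of the 3 genes lay between -0.06 and 0.01, and their 95% intervals between 88.5 and 111% of WT. The median of the group was -0.02, and with the mitochondrially encoded genes left out the differences were 9.45% for Mfn1, 4.18% for Mfn2 and 6.91% for Opa1.

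Of the 5 MICOS genes 3 were lower without overlap, and the median of the 5 was -0.12. Over all genes tested 10.3% were lower without overlap, and the median was -0.014. Chchd3 encodes MIC19, a core subunit that links MICOS to the outer membrane, and stood at 226, 237 and 229 TPM in WT and 203, 208 and 202 TPM in mKO. The log2 fold change was -0.17 (SE 0.04, limma adjusted p = 0.21). On the scale of nuclear genes it was at 399, 409 and 416 in WT and 398, 392 and 391 in mKO, a difference of -3.59% in which the groups were barely apart. Apoo, the MIC26 subunit, stood at 128, 129 and 126 TPM in WT and 108, 114 and 116 TPM in mKO, a log2 fold change of -0.18 (SE 0.05, limma adjusted p = 0.223). Immt, the scaffold subunit mitofilin or MIC60, was at 65.7, 69.2 and 70.1 TPM in WT and 63.6, 62.3 and 63.2 TPM in mKO, with a log2 fold change of -0.12 (SE 0.05, limma adjusted p = 0.463). Without the mitochondrially encoded genes, Apoo and Immt overlapped and the value of Immt was just above 0.

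Apool, the MIC27 subunit and paralogue of Apoo, was at 19.5, 22.4 and 21.3 TPM in WT and 20.2, 20.2 and 22.5 TPM in mKO, with overlap. Chchd6, the MIC25 subunit, was at 2.03, 2.15 and 1.74 TPM in WT and 2.36, 1.96 and 1.34 TPM in mKO. These rest on 68 to 122 reads, for which counting alone gives a coefficient of variation of up to 12.1%, so a difference of the size seen in Chchd3 was not detectable for Chchd6.

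Of the outer membrane genes, Samm50 and the metaxins Mtx1 and Mtx2 encode the sorting and assembly machinery that inserts barrel proteins and docks on MICOS. Mtx2 was the single gene that was higher in mKO without overlap, at 24.4, 24.3 and 23.9 TPM in WT and 25.9, 27.1 and 25.4 TPM in mKO. The log2 fold change was 0.11 (SE 0.05, limma adjusted p = 0.554), and on the scale of nuclear genes the values were 43.2, 42.0 and 43.5 in WT and 50.8, 51.0 and 49.0 in mKO, 17.2% more. Samm50 was at 76.9, 81.1 and 80.2 TPM in WT and 75.1, 76.2 and 76.1 TPM in mKO, a difference of -4.55% without overlap that became 3.58% with overlap once the mitochondrially encoded genes were left out. Mtx1 was at 12.2 ± 0.89 and 11.2 ± 0.9 TPM (SD, n = 3) and overlapped. Up to 21.2% of the exon bases of Mtx1 lie under a single gene of the opposite strand, so if reads were counted without strand part of its level could belong to that gene.

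Both mitophagy genes overlapped. Pink1, the kinase that marks damaged mitochondria, was the most abundant of the 37, at 788, 785 and 759 TPM in WT and 760, 771 and 690 TPM in mKO, with replicate 3 lowest in both groups. Fundc1, an outer membrane receptor for autophagy in low oxygen, was at 18.9, 18.1 and 20.6 TPM in WT and 21.7, 22.9 and 19.4 TPM in mKO. Its log2 fold change of 0.14 (SE 0.08, limma adjusted p = 0.593) was the highest of the 37, and mKO replicate 3 was the library that overlapped. With the mitochondrially encoded genes left out it was 0.26 (95% interval 0.06 to 0.46, limma adjusted p = 0.195), still with overlap.

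**Figure D3:**
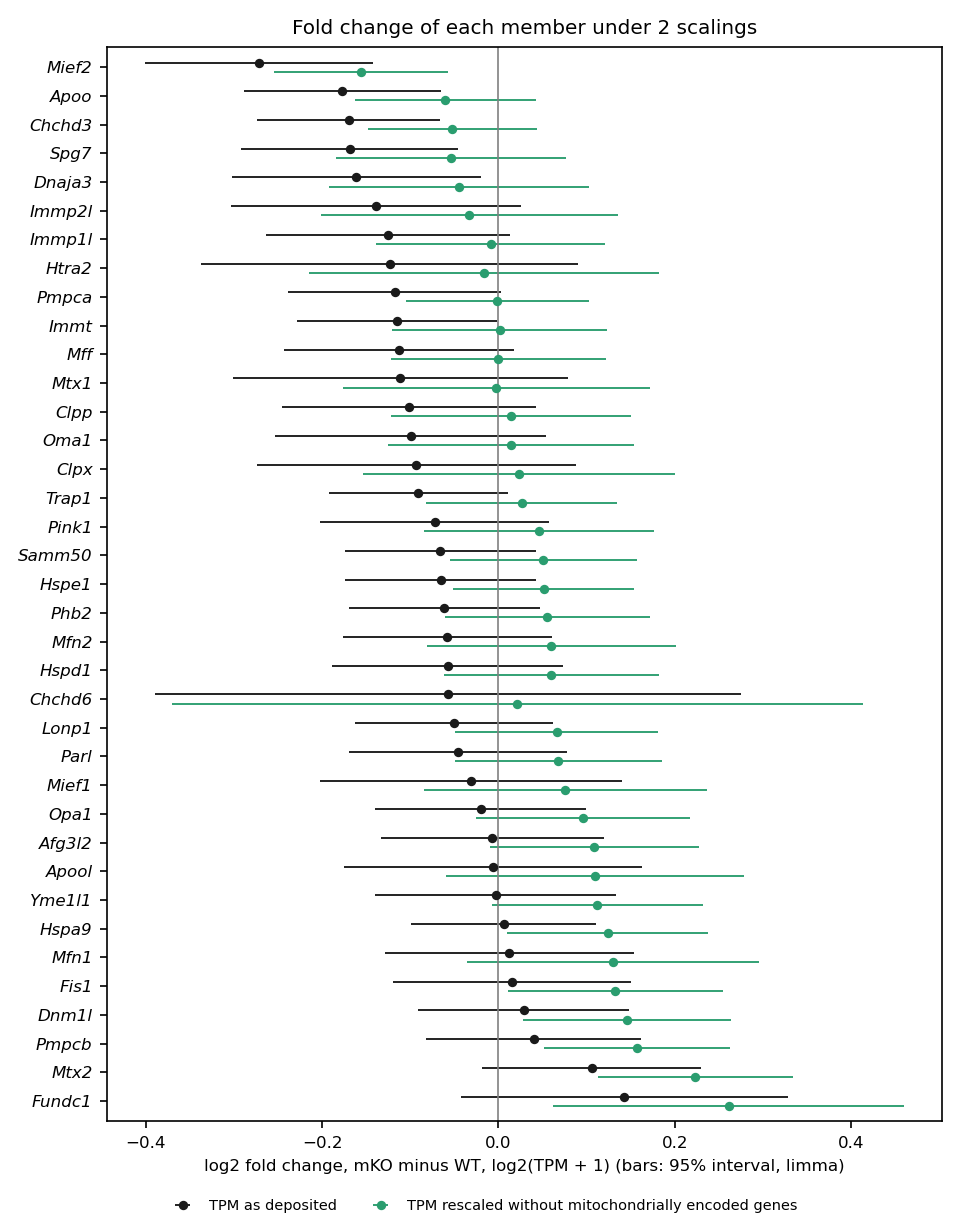
Difference of each of the 37 genes in log2(TPM + 1), mKO minus WT (horizontal axis), with its 95% interval from limma, for the deposited TPM in black and for TPM rescaled without the mitochondrially encoded genes in green. Every green point lies right of its black point, and Mief2 is the lowest gene on both scales.

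Chaperones of the matrix were at or slightly below WT on the deposited scale. With the mitochondrially encoded genes left out, Hspd1 (4.34%), Hspe1 (3.66%), Trap1 (1.83%) and Hspa9 (8.98%) were above WT and only Dnaja3 (-3.2%) was below. Over all genes tested the median was itself 0.093 (log2) on that scale. Hspd1 (0.0602), Hspe1 (0.051), Trap1 (0.026) and Dnaja3 (-0.045) lay below that median, and Hspa9 (0.124) lay above it. Hspd1 and Hspe1 encode the HSP60 and HSP10 chaperonins, which form a folding chamber together. Hspd1 was at 217, 233 and 211 TPM in WT and 220, 211 and 204 TPM in mKO, with overlap, and Hspe1 at 74.6, 75.6 and 74.1 TPM in WT and 72.5, 72.4 and 69.3 TPM in mKO, without. The ratio of Hspe1 to Hspd1 was 0.343, 0.324 and 0.352 in WT and 0.329, 0.343 and 0.34 in mKO, so the pair kept within its replicate spread. The genes start 215 bases apart on opposite strands. A stretch of 30 bases between them on chr1:55088056-55088085 (plus strand, GRCm38.p6, RefSeq, within an annotated Hspd1 exon) is shown because it joins a heat shock element (GAANNTTC) and an ETS motif on either strand, which overlap (capitals).
Hspd1-Hspe1: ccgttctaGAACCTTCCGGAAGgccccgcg
The element lies 132 bases from the start of Hspd1 and 77 bases from that of Hspe1.

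Hspa9 encodes mortalin, the HSP70 of the matrix and motor of import, and was at 352, 374 and 364 TPM in WT and 368, 359 and 367 TPM in mKO, with overlap. With the mitochondrially encoded genes left out it was at 622, 645 and 663 in WT and 719, 675 and 710 in mKO, higher without overlap, as were 23.9% of all genes tested. Its log2 fold change on that scale was 0.12 (SE 0.05, limma adjusted p = 0.234). Its co-chaperone Dnaja3 was at 63.4, 70.9 and 70.5 TPM in WT and 59.8, 59.6 and 63.4 TPM in mKO. The highest mKO value of Dnaja3 and its lowest WT value met at 63.4 TPM after rounding, so the groups were apart by only 0.0241 TPM, with a log2 fold change of -0.16 (SE 0.06, limma adjusted p = 0.397). Trap1, the HSP90 of the matrix, was at 101, 102 and 103 TPM in WT and 94.9, 95.04 and 96.7 TPM in mKO, with a log2 fold change of -0.09 (SE 0.04, limma adjusted p = 0.529). Phb2, a prohibitin that forms rings in the inner membrane, was at 80.8, 81.5 and 81.4 TPM in WT and 80.4, 77.0 and 76.1 TPM in mKO. The mKO replicate 1 of Phb2 lay 0.355 TPM below the lowest WT library. Hspe1, Dnaja3, Trap1 and Phb2 all overlapped once the mitochondrially encoded genes were left out.

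Proteases of the matrix all overlapped on both scales. Lonp1, which degrades oxidised proteins, was at 60.6 ± 1.84 and 58.5 ± 0.84 TPM in WT and mKO (SD, n = 3). Clpx and Clpp encode the unfoldase and the peptidase of a single protease. Clpx was at 72.7 ± 5.8 and 68.0 ± 5.22 TPM and Clpp at 40.7 ± 2.32 and 37.8 ± 1.59 TPM, and their ratio stood at 1.79 ± 0.06 in WT and 1.8 ± 0.08 in mKO.

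Among the proteases of the inner membrane and the space outside it, Spg7 differed most on the deposited scale. Spg7, or paraplegin, forms the m-AAA protease with Afg3l2. Spg7 was at 43.6, 45.9 and 47.4 TPM in WT and 39.8, 40.4 and 41.2 TPM in mKO, with a log2 fold change of -0.17 (SE 0.05, limma adjusted p = 0.297). Afg3l2 was at 26.3, 28.0 and 26.5 TPM in WT and 27.5, 26.7 and 26.2 TPM in mKO, with overlap. With the mitochondrially encoded genes left out this turned round: Spg7 overlapped (-3.8%) and Afg3l2 was higher without overlap (8.03% more), as were 23.9% of all genes tested. Which gene of the pair was apart thus depended on the scale.

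Parl, the protease that cuts StarD7, was at 18.9, 19.2 and 19.2 TPM in WT and 18.1, 18.9 and 18.5 TPM in mKO. Its groups were apart by only 0.0355 TPM, with a log2 fold change of -0.05 (SE 0.05, limma adjusted p = 0.829) and a 95% interval from 88.9 to 106% of WT, while Stard7 RNA stood at 28.0% of WT. Without the mitochondrially encoded genes the value was 0.07 and the mKO libraries were higher, so the direction of Parl against WT depended on the scale. Against the median of all genes tested, -0.014 on the deposited scale and 0.093 on the other, Parl was lower on both. Yme1l1, the i-AAA protease, and Oma1, a stress-activated protease, both of which cut Opa1, overlapped at 22.99 ± 0.21 and 22.96 ± 1.25 TPM and at 25.7 ± 1.94 and 23.9 ± 0.54 TPM. When the mitochondrially encoded genes were left out, Yme1l1 was higher without overlap (8.31% more), as were 23.9% of all genes tested. Htra2, a serine protease released in cell death, was at 10.8 ± 1.05 and 9.84 ± 0.9 TPM (SD, n = 3) and overlapped, and 43.8% of its exon bases lie under genes of the opposite strand.

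The processing peptidases remove targeting signals from imported proteins. Pmpca and Pmpcb encode the subunits of the matrix processing peptidase. Pmpca was at 77.3, 79.5 and 77.6 TPM in WT and 70.7, 75.8 and 69.4 TPM in mKO, lower without overlap, with a log2 fold change of -0.12 (SE 0.05, limma adjusted p = 0.473). Pmpcb was at 36.5, 38.9 and 37.4 TPM in WT and 38.1, 39.9 and 38.2 TPM in mKO, with overlap. With the mitochondrially encoded genes left out Pmpca overlapped (-0.0694%) and Pmpcb was higher without overlap (11.7% more), as were 23.9% of all genes tested. With median-of-ratios scaling, upper-quartile scaling and limma-voom Pmpca was lower and Pmpcb higher, both without overlap. Immp1l and Immp2l encode the inner membrane peptidase. Immp2l was at 10.9, 10.4 and 9.71 TPM in WT and 9.51, 8.78 and 9.55 TPM in mKO, lower without overlap on the deposited scale but not without the mitochondrially encoded genes, while Immp1l at 70.0 ± 3.38 and 64.1 ± 3.26 TPM (SD, n = 3) overlapped.

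Ratios between partners within a library do not depend on how libraries are scaled. The 13 examined were chosen with earlier results of these data known. In 5 the groups did not overlap, each with an exact two-sided permutation p of 0.1, the smallest possible with 3 against 3, and 0.26 adjusted over the 13. The share over other pairs of genes was not computed, so the count of 5 has no reference. Pmpcb to Pmpca was the most separate against its spread, at 0.473, 0.49 and 0.482 in WT and 0.538, 0.527 and 0.549 in mKO. This is 11.8% more, or 5.76 times the SD within groups on the log2 scale, and 20.4% of the exon bases of Pmpca lie under Inpp5e on the opposite strand. Spg7 to Afg3l2 was at 1.66, 1.64 and 1.79 in WT and 1.45, 1.51 and 1.57 in mKO, a difference of -10.8%.

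Apool to Apoo was at 0.153, 0.174 and 0.169 in WT and 0.187, 0.177 and 0.193 in mKO, 12.7% more, with replicate 2 of the 2 groups nearly touching. Mtx2 to Mtx1 was at 2.12, 1.84 and 2.0 in WT and 2.54, 2.33 and 2.13 in mKO, 17.4% more, with WT replicate 1 and mKO replicate 3 nearly touching. Mfn2 to Mfn1 was at 2.93, 2.9 and 2.87 in WT and 2.77, 2.86 and 2.65 in mKO, a difference of -4.77%, with WT replicate 3 and mKO replicate 2 nearly touching. The other 8 ratios overlapped, with exact permutation p from 0.2 to 1.0, among them Fis1 to Dnm1l, Chchd3 to Immt and Yme1l1 to Oma1.

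**Figure D4:**
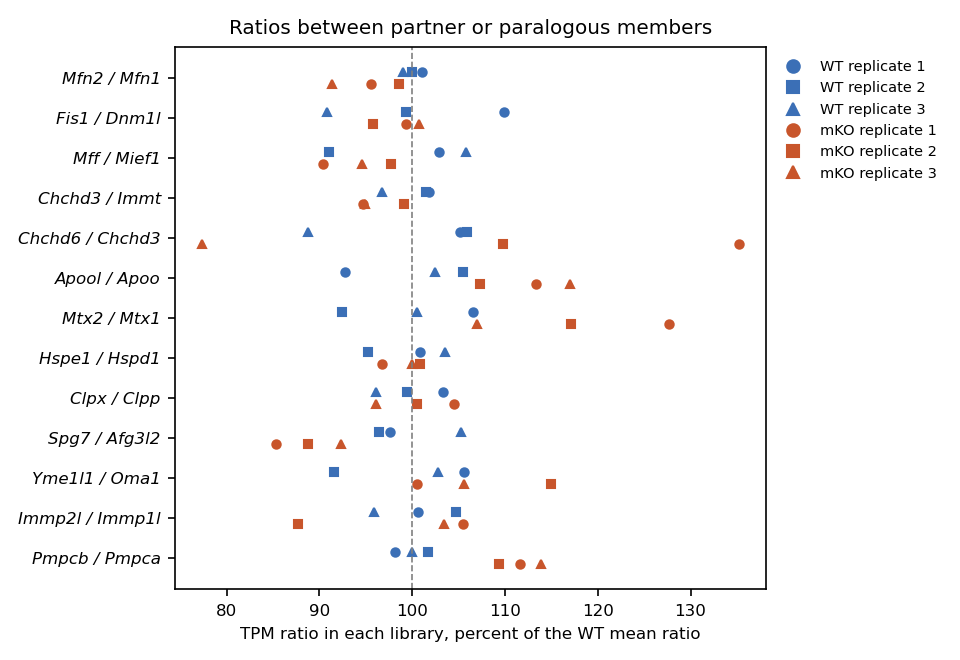
The 13 ratios of TPM between partner genes in each library, as a percent of the WT mean of that ratio, with a point for each library and colours for WT and mKO. The mKO points of Pmpcb to Pmpca all lie above the WT points with a clear gap, while those of Hspe1 to Hspd1 and Clpx to Clpp are mixed with them.

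In level the genes spanned a wide range per exon length. Pink1 led in WT at 777 ± 16.4 TPM, then Hspa9 at 363 ± 11.03 and Mfn2 at 360 ± 16.9 TPM, which did not differ beyond their spread. Chchd3 at 230 ± 5.92 and Hspd1 at 220 ± 11.7 TPM followed, then Apoo at 128 ± 1.34 and Mfn1 at 124 ± 7.01 TPM, again pairs within their spread. The lowest were Immp2l at 10.3 ± 0.6, Mief1 at 6.66 ± 0.49 and Chchd6 at 1.98 ± 0.21 TPM (SD, n = 3). Paralogues were thus far apart in this muscle: Mief2 against Mief1, Apoo against Apool and Chchd3 against Chchd6. The lengths behind these values are those of all annotated exons, 11353 bases for Immt and 9757 for Mff, so a gene whose long exons are little used has a low TPM.

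**Figure D5:**
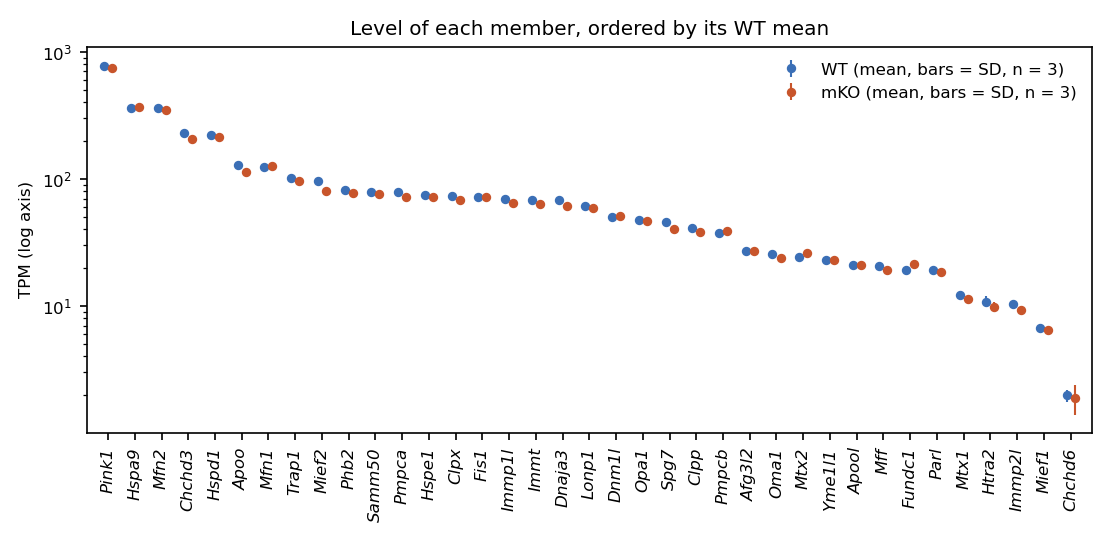
Mean TPM of each of the 37 genes in WT and in mKO (log axis), ordered by level, with bars for the SD of 3 libraries. Pink1 is at the top, Chchd6 at the bottom, and the WT and mKO points of most genes touch at this scale.

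No further gene of the same pathways was called. Over 7 further lists, 89 of 94 genes were tested and 0 were called by limma, with 12 lower without overlap (13.5%, against 10.3% of all genes tested) and 4 higher (4.49%, against 5.67%). Pooled over the 7 lists these shares were near those of all genes, and the share lower was smaller than the 37.8% of the 37 genes. By list the number lower without overlap varied. It was 0 of 13 further fusion and fission genes and 0 of 8 biogenesis genes, but 3 of 12 further chaperones and proteases and 3 of 9 further cristae genes. The cristae list had the lowest median, -0.09, with all 9 genes below 0 and 3 apart. On the log2 scale Chchd2 stood at -0.15 (SE 0.04, limma adjusted p = 0.237) and Atad3a, which overlapped, at -0.14 (SE 0.07, limma adjusted p = 0.558). The further fusion and fission list of 13 genes had a median of -0.01, led by Spire1 at 0.18 and Miga1 at 0.13. Among 15 further mitophagy genes the median was -0.05, with 2 lower without overlap (Nipsnap2 at 90.7% and Calcoco1 at 91.8% of WT) and 2 higher (Bnip3 and Ambra1, the latter at 103%). Bnip3, a hypoxia-induced mitophagy receptor, at 452, 430 and 481 TPM in WT and 510, 534 and 489 TPM in mKO, was higher without overlap (log2 fold change 0.17, SE 0.06, limma adjusted p = 0.351), and Usp30 was also at 0.17.

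For the counts that follow, 10.3% of all genes tested were lower and 5.67% higher without overlap. Of 24 import genes 1 was higher and 3 lower without overlap, with Timm10 at 0.16 (SE 0.05, limma adjusted p = 0.273) and Tomm5 at 0.14. Of 12 further chaperones and proteases 3 were lower without overlap, with Lactb at -0.15 and Oxa1l at -0.12. The 8 regulators of mitochondrial stress, which include Atf4 and Atf5, had a median of -0.05, with Cebpb at -0.14 (SE 0.17) and Ubl5 at -0.12. The 8 biogenesis genes all overlapped, with Ppargc1b at -0.09 and Polrmt at -0.07. Of 6 genes whose proteins Parl cuts, Stard7 was called and 2 others were lower without overlap. Clpb, a disaggregase, was at 17.6, 17.5 and 18.8 TPM in WT and 17.0, 16.4 and 17.2 TPM in mKO (log2 fold change -0.09, SE 0.06, limma adjusted p = 0.673). Pgam5, a mitochondrial phosphatase, was at 28.9, 29.3 and 28.4 TPM in WT and 26.4, 27.1 and 26.9 TPM in mKO, with a log2 fold change of -0.10 (SE 0.05, limma adjusted p = 0.536).

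Promoter windows of 300 bases were found in RefSeq for 34 of the 37 genes, all but Hspa9, Htra2 and Afg3l2. The ETS motif, searched as CCGGAAG on both strands, was in 17 of 34 (50.0%), among them Chchd3, Immt, Dnaja3, Mtx2, Parl, Pmpca and Pmpcb, against 20.2% of 9372 tested genes and 9.93% of 27025 genes with a window. It was in 7 of the 14 genes lower without overlap, and so no more frequent there than in the 34. CCAAT was in 17 of 34 (50.0%), against 42.8% of tested genes, and also in 7 of those 14. The heat shock element GAANNTTC was in 3 genes, Hspd1, Hspe1 and Parl (8.82%, against 6.98% of tested genes), and the NRF1 core GCATGCGC in 2, Clpx and Opa1 (5.88%, against 5.91%). TGATGNAA, the composite site of CHOP and ATF4, was in none of the 34 windows, against 2.69% of tested genes. A match is a match of letters in this window and says nothing of binding.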

How the data were processed

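RNA of soleus was sequenced as poly(A)-selected, directional libraries, per the labels' protocols, for 3 WT and 3 mKO samples. The authors deposited a table of TPM for each library. The genome build is GRCm39 by the submitters' processing notes. The tools for alignment and counting, and any use of strand, are not given in the sources used here. The genotype label set each sample's group.

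Genes that reached 1 TPM in 3 or more libraries were tested on log2(TPM + 1) with limma 3.58.1 in R 4.3.3 (limma-trend, genotype as the only term), and p-values were adjusted by Benjamini-Hochberg over all 12301 genes, threshold 0.05. Fold changes on this scale understate those of low genes. Ratios and shares were tested by exact two-sided permutation with SciPy 1.17.1. The scripts were tested on simulated data. Depth was recovered by multiplying TPM by exon length and a scale for each library, which gave whole reads within 0.05 reads for 93.12% of 22734 genes and for all 37 genes described. Of these values 58.55% were even, so mates of a pair may in part have been counted apart.

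The genes, lists and ratios were chosen with earlier results of these data known. Genes named are Stard7, the 37 and, of each further pathway list, those called or else the 2 with the largest absolute fold change; names given beside a count of genes apart, such as Clpb, Nipsnap2, Calcoco1 and Ambra1, were chosen after their values were seen. Ddit3 of the stress list matched no name exactly and was not used, and Phb1 is listed as Phb. Alternatives were other filters, pseudocounts and scalings, limma-voom on recovered reads, a replicate block and each library left out.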

Additional observations from a re-analysis of the deposited data

How the results depend on the processing

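No gene of the 37 passed the threshold under any of the 14 alternatives, and 468 of their 518 values kept their direction. The other filters and the replicate block leave each fold change as it was, so their values could not change direction. Without the mitochondrially encoded genes 19 of the 37 changed direction, and 22 did so in at least 1 alternative. The number of genes called over the whole table was 64, but 6 with no filter on low values, 41 without the mitochondrially encoded genes, 41 with median-of-ratios scaling, 39 with upper-quartile scaling and 21 with the replicate block, and ran from 4 to 94 when 1 library was left out (13, 4 and 12 without WT replicate 1, 2 and 3, 13, 26 and 94 without mKO replicate 1, 2 and 3). The replicate block called 0 of the 37; deviations of same-numbered samples correlated at r = 0.095, 0.0474 and 0.131, too little to treat them as pairs, although each sample correlated best with its own number. Genes lower without overlap numbered 2, 7, 9 and 6, and higher ones 8, 2, 2 and 2, without the mitochondrially encoded genes, with median-of-ratios, with upper-quartile scaling and with limma-voom, where the median of the 37 was 0.051, -0.048, -0.046 and -0.015. In the same order, the lower ones were 5.41, 18.9, 24.3 and 16.2%, against 2.71, 8.85, 8.61 and 5.75% of all genes tested. The higher ones were 21.6, 5.41, 5.41 and 5.41%, against 23.9, 8.43, 8.71 and 11.8%. With 1 library left out, the genes lower without overlap numbered 14 to 19 and the higher ones 1 to 2. Pmpcb joined Mtx2 without WT replicate 2, and Fundc1 without WT replicate 3 or mKO replicate 3. As shares these were 37.8 to 51.4% lower, against 12.3 to 20.4% of all genes tested, and 2.7 to 5.41% higher, against 7.09 to 12.2%. Groups of fewer libraries are apart more often by construction. The median of the 37 then ran from -0.082 to -0.051. The counts of genes apart and the median over all genes were chosen as results after seeing the data. Values that changed sign were, without the mitochondrially encoded genes, Mfn2 0.0601, Opa1 0.096, Mief1 0.076, Immt 0.0013, Chchd6 0.021, Apool 0.109, Samm50 0.051, Pink1 0.046, Hspd1 0.0602, Hspe1 0.051, Trap1 0.026, Phb2 0.056, Lonp1 0.066, Clpp 0.014, Clpx 0.024, Yme1l1 0.112, Oma1 0.014, Afg3l2 0.109 and Parl 0.068. With median-of-ratios they were Apool 0.011, Yme1l1 0.014 and Afg3l2 0.0103, and with upper-quartile scaling Apool 0.013, Yme1l1 0.016 and Afg3l2 0.013. With limma-voom they were Opa1 0.032, Mief1 0.016, Apool 0.046, Lonp1 0.00104, Yme1l1 0.049, Afg3l2 0.045 and Parl 0.0041. With 1 library left out, 9 genes had values on both sides of 0: Mfn1 from -0.0306 to 0.0518, Opa1 from -0.049 to 0.000891, Fis1 from -0.0325 to 0.0603, Mief1 from -0.0716 to 0.0178, Chchd6 from -0.173 to 0.0854, Apool from -0.0576 to 0.0381, Hspa9 from -0.0172 to 0.0265, Yme1l1 from -0.0459 to 0.0216 and Afg3l2 from -0.0244 to 0.0211. The cause was not tested. Depth limits Chchd6, at 68 reads in its lowest library.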
